A study of Bos taurus with 12 samples.

Results

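CTSK, CTSS and ACP5 encode 2 lysosomal proteases and a phosphatase that are abundant in osteoclasts, and all 5 of their probe sets were followed between 2 zones of the cattle growth plate. The probe sets were those that the platform's annotation names by 1 of these 3 symbols, 1 for CTSK, 1 for CTSS and 3 for ACP5, out of 24128 on the array, so that they stand for 3 of the 9155 genes named there. The genes were picked with their difference between the zones already known, so that difference is described here and not tested. The cells were chondrocytes of the metacarpal growth plate, taken at its distal end from male dairy calves and young cattle under 10 months old. They were freed from the matrix by 4 hours of collagenase P digestion and parted by density. The hypertrophic zone (HZ) samples were the lightest fraction, and the reserve zone (RZ) samples the heaviest. There were 6 arrays of each zone in 6 numbered pairs. Since the labels call the pairs independent but name no animals, errors refer to these pairs, and the number of arrays limits their precision. Each SE of a log2 difference is a moderated one, its variance drawn toward that of all probe sets, and is not the plain spread of the pairs.

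Cathepsin K (CTSK) is a cysteine protease of the papain family that cuts the triple helix of collagen in the acid space under an osteoclast, the cell that resorbs bone and mineralised cartilage. Cathepsin S (CTSS) is a relative that stays active at neutral pH and, in antigen-presenting cells, trims the invariant chain of MHC class II molecules. ACP5 is tartrate-resistant acid phosphatase, the classical stain for osteoclasts, which macrophages also make. It removes phosphate from osteopontin and bone sialoprotein and is not a protease. In the growth plate, resorbing cells meet the hypertrophic cartilage at its border with bone.

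The fractions differed in zone markers. Of 6 measured hypertrophic zone genes, MMP13, IHH, ALPL, MEF2C and PTH1R were higher in HZ and COL10A1 did not pass, and of 5 reserve zone genes, SFRP5, PTHLH, CLU and APOE were lower and GDF5 did not pass (limma, blocked on pair, with a threshold of 0.05 on the adjusted p). Over all 24016 probe sets that are not controls, 3.26% passed as higher and 2.96% as lower, and the median log2 difference was -0.0095. Of 7 measured chondrocyte genes, 6 did not pass, among them COL2A1, with 25060.2 ± 5927 signal units in HZ and 23572 ± 9942 in RZ (SD, n = 6), and MATN1 fell, with 55.3 ± 14.7 in HZ and 116 ± 43.7 in RZ (adjusted p = 0.0404). The pairs fell into 2 groups, pairs 1 and 2 and pairs 3 to 6, by the smallest step between deposited values, 0.0237 to 0.0318 in the first and 0.00884 to 0.0110 in the second. No label names a batch, and the differences are therefore also given within each group of pairs.

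CTSK transcript was higher in HZ in every pair. Signals, in scanner units recovered from the deposited ratios, ran from 5350.4 through a median of 6783 to 8174 on the HZ arrays and from 1569 through a median of 2481 to 4017 on the RZ arrays. The zones did not overlap, and the lowest HZ array (HZ-2) and the highest RZ array (RZ-2) belonged to the same pair. CTSK averaged 6683 ± 929 signal units in HZ and 2522 ± 868 in RZ (SD over 6 arrays each). On the scale of log2(signal + 16) the difference, HZ minus RZ, was 1.46 ± 0.21 (SE), a 2.74-fold higher level. It was 0.41 in pair 2 and 1.29 to 1.96 in the others. In such bulk fractions, more cells of a type that makes a transcript and more transcript per cell cannot be told apart.

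CTSS had a nearly constant level in HZ and a variable one in RZ. On the HZ arrays its signal ran from 806 through a median of 879.6 to 977, and on the RZ arrays from 189 through a median of 265 to 1052. CTSS averaged 888 ± 66.5 signal units in HZ and 414 ± 336 in RZ (SD over 6 arrays each). The coefficient of variation was 7.49% in HZ and 81.2% in RZ. The RZ arrays of pairs 3 to 6 stood between 189 and 277, RZ-1 at 520.1, and RZ-2, at 1052, stood above all HZ arrays, so the zones overlapped through that 1 array. The log2 difference was 1.36 ± 0.29 (SE), or 2.56-fold, with -0.22 in pair 2, 0.89 in pair 1 and 1.61 to 2.07 in pairs 3 to 6. CTSK shared this feature in part, with a coefficient of variation of 13.9% in HZ and 34.4% in RZ. For comparison, 38.2% of all probe sets had the larger SD of log2 signal in RZ.

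**Figure D1:**
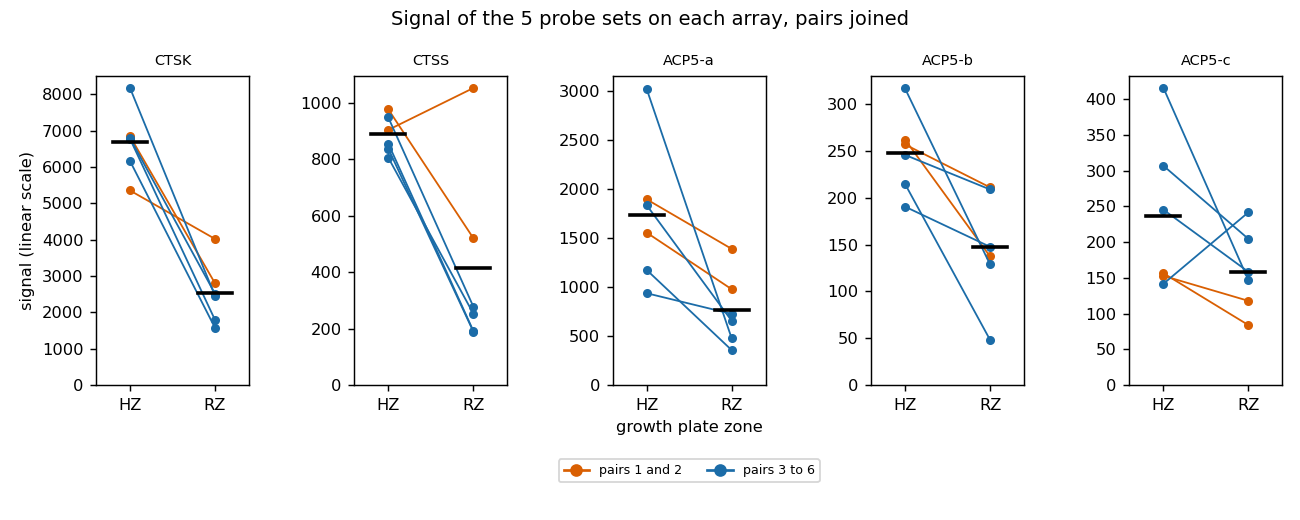
Signal (linear scale, in recovered scanner units) of the 5 probe sets of CTSK, CTSS and ACP5 on each HZ and RZ array, with the 2 arrays of a pair joined by a line and the mean of each zone (n = 6) as a black bar. CTSK lies between 5350.4 and 8174 in HZ and between 1569 and 4017 in RZ, while the CTSS signal of RZ-2, 1052, lies above every HZ array.

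The 3 ACP5 probe sets did not give the same size of difference. They are called ACP5-a, ACP5-b and ACP5-c here, in order of their mean log2 signal. The annotation lists ACP5-a and ACP5-c under the same sequence record and ACP5-b under another. At ACP5-a the signal ran from 935 through a median of 1693 to 3018 in HZ and from 354 through a median of 689 to 1387 in RZ. Each HZ array was above the RZ array of its pair, although the zones overlapped, and the log2 difference was 1.21 ± 0.29 (SE), or 2.31-fold. It was widest in pair 3, at 2.63, and 0.36 in pair 6.

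At ACP5-b, signals ran from 191 through a median of 252 to 317 in HZ and from 48.2 through a median of 143 to 211 in RZ. The log2 difference was 0.79 ± 0.23 (SE), positive in all 6 pairs, with 1.85 in pair 5, where RZ-5 had the lowest signal. At ACP5-c, the range was 142 to 416 in HZ (median 201) and 83.8 to 242 in RZ (median 152), and the zones overlapped broadly. The log2 difference was 0.49 ± 0.24 (SE), with -0.71 in pair 6, the 1 pair in which this probe set was lower in HZ. Coefficients of variation in HZ and RZ were 42.1% and 49.1% for ACP5-a and 17.5% and 41.0% for ACP5-b. For ACP5-c the order was the other way, with 46.2% in HZ and 36.1% in RZ. After the zone means were taken off, ACP5-a and ACP5-b varied together over the 12 arrays (Pearson r = 0.67), while ACP5-c gave r = 0.073 and -0.023 with them. These are descriptions of probe sets on shared arrays.

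In the fit over all probe sets, 3 of the 5 passed as higher in HZ, those of CTSK, CTSS and ACP5-a, beside 3.26% of all probe sets. CTSK, ACP5-a and ACP5-b were higher in all 6 pairs, beside 6.85%, and CTSK had every HZ array above every RZ array, beside 1.68%. With 1 pair left out in turn, CTSK passed in 6 of 6 fits, ACP5-a in 2, those without pair 2 and without pair 6, and CTSS in 1, that without pair 2. Since the genes were chosen on this difference, nothing is read from these counts.

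**Figure D2:**
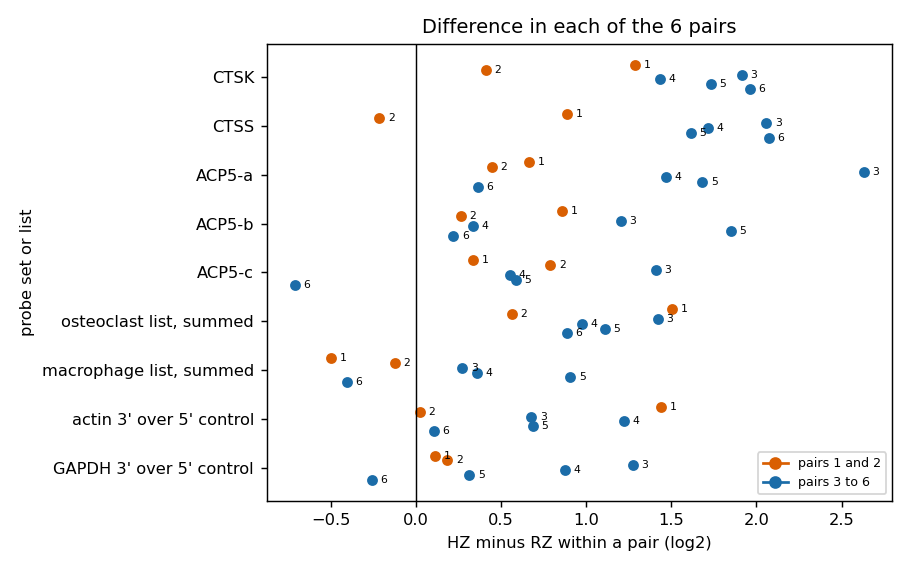
Difference HZ minus RZ (log2, horizontal axis) in each of the 6 numbered pairs for the 5 probe sets, for the summed signal of the osteoclast and the macrophage gene lists, and for the 3′ over 5′ ratio of the actin and GAPDH controls. Pair 2 has the smallest CTSK and CTSS differences (0.41 and -0.22), and the macrophage sum is below 0 in pairs 1, 2 and 6.

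The zone difference was larger in pairs 3 to 6 than in pairs 1 and 2 for CTSK, CTSS and ACP5-a, but the difference between the groups of pairs did not pass. For CTSS the log2 difference was 0.34 in the first group (pairs 1 and 2) and 1.87 in the second (pairs 3 to 6). For CTSK these values were 0.85 and 1.76, and for ACP5-a 0.55 and 1.54. The term for a different zone effect gave adjusted p = 0.944 for CTSK, 0.660 for CTSS and 0.999 for each ACP5 probe set, and 0 of the 5 passed, beside 0.00833% of all probe sets. In that term CTSS had an unadjusted p of 0.00340 and CTSK of 0.0342, where 5.03% of all probe sets were under 0.05. The levels show where the groups of pairs parted. Mean CTSS signal in HZ was 940.4 in the first group and 862 in the second, and in RZ it was 786 and 228. For CTSK the HZ means were 6097 and 6976, and the RZ means 3407 and 2079.7.

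The ratio of 3′ to 5′ control probes is higher where RNA is less complete. It was higher in HZ in 6 of 6 pairs for actin and in 5 of 6 for GAPDH, by amounts that varied between pairs. For actin the log2 ratio averaged 2.79 ± 0.59 in HZ, against 2.10 ± 0.40 in RZ (SD over 6 arrays each), and within pairs 1 to 6 it differed by 1.44, 0.023, 0.68, 1.22, 0.68 and 0.11. For GAPDH the log2 ratio averaged 0.52 ± 0.65 in HZ and 0.10 ± 0.28 in RZ. The difference was 1.27 in pair 3 and 0.87 in pair 4 and -0.26 to 0.31 in the other pairs. Both control differences were small in pairs 2 and 6. In pair 6 the log2 differences of CTSK and CTSS were 1.96 and 2.07, the widest of all pairs, and in pair 2 they were 0.41 and -0.22, the smallest. Pair 3 had both the widest GAPDH difference and the widest difference of ACP5-a. Without pairs 3 and 4 the log2 differences were 1.35 for CTSK, 1.09 for CTSS and 0.79 for ACP5-a, and none of them passed. The part of RNA quality in these values was not tested.

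Correlations within a zone show whether the 3 transcripts vary together apart from the zone difference, with ACP5 read from ACP5-a, its brightest probe set. The other ACP5 probe sets gave other values: after the zone means were taken off, r over the 12 arrays with CTSS was 0.63 for ACP5-a, 0.30 for ACP5-b and -0.57 for ACP5-c, and with CTSK it was 0.38, 0.0085 and -0.34. Over the 6 RZ arrays, CTSK and CTSS levels rose and fell together (Pearson r = 0.93, exact permutation p = 0.00278, adjusted p = 0.0167 over 6 relations; Spearman rho = 0.94, exact permutation p = 0.0167, adjusted p = 0.1). Without the 2 RZ arrays farthest from the median CTSK level, r was 0.85 (n = 4), too few arrays for a call after adjustment. For CTSS and ACP5-a in RZ, r was 0.82 (exact permutation p = 0.0403, adjusted p = 0.121; rho = 0.71, exact permutation p = 0.136), and it turned to -0.18 without the 2 arrays farthest on CTSS. For CTSK and ACP5-a in RZ, r was 0.60 (exact permutation p = 0.203, adjusted p = 0.406; rho = 0.60, exact permutation p = 0.242).

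Over the 6 HZ arrays none of the 3 relations passed. There r was -0.35 for CTSK and CTSS (exact permutation p = 0.517, adjusted p = 0.775; rho = -0.086, exact permutation p = 0.919), and -0.16 for CTSK and ACP5-a (exact permutation p = 0.814, adjusted p = 0.814; rho = -0.31, exact permutation p = 0.564). For CTSS and ACP5-a it was 0.15 (exact permutation p = 0.767, adjusted p = 0.814; rho = 0.086, exact permutation p = 0.919). Each zone has 2 arrays in pairs 1 and 2 and 4 in pairs 3 to 6, too few for a correlation within a group of pairs. RZ-1 and RZ-2 were the RZ arrays with the highest signals of CTSK, CTSS and ACP5-a, so in RZ the relation and the grouping of pairs cannot be told apart.

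**Figure D3:**
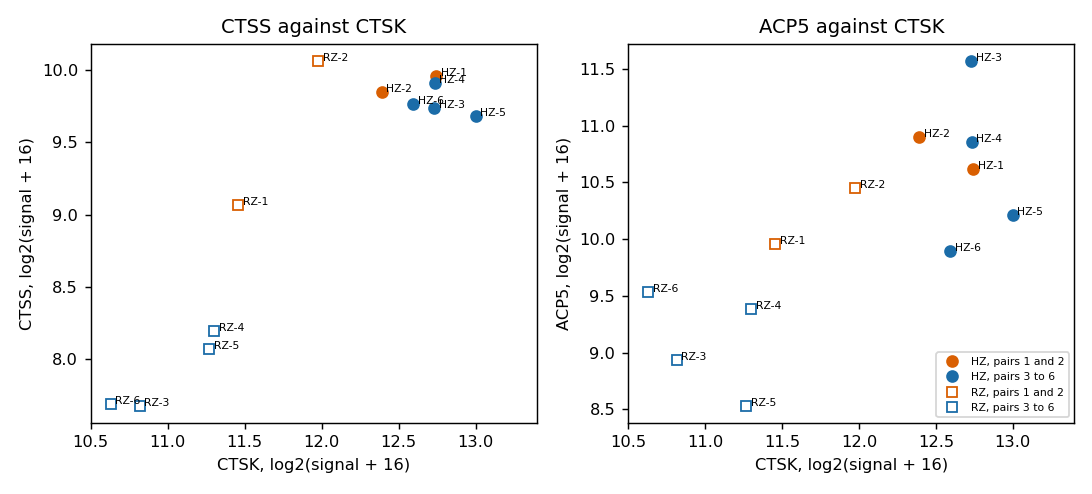
Levels, as log2(signal + 16), of CTSS (left) and of ACP5-a (right) against CTSK on each of the 12 arrays, with HZ filled and RZ open and the groups of pairs in 2 colours. RZ-1 and RZ-2 lie at the upper right of the RZ arrays in both panels, and the HZ arrays of CTSS form a tight cluster (806 to 977 in signal).

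The genes whose levels were most like each of the 3 after the zone means were taken off are given as a description over 12 arrays that share pairs and normalization, out of 9664 named probe sets with a mean signal of at least 50. For CTSK they were MGAT5B, a glycosyltransferase (r = 0.89), the mitochondrial ribosomal protein MRPL43 (0.87), the ribosomal protein RPL21, CTSS and LURAP1L (each 0.84). CTSS was most like CST3, the secreted cathepsin inhibitor cystatin C (r = 0.92), then an immunoglobulin constant chain gene, IGCGAMMA (0.91), the MHC class II chain BOLA-DRB3, the transcription factor YY1 (each 0.90) and the ubiquitin ligase MARCHF3 (0.89). Within RZ alone the r of CTSS was 0.97 with CST3, 0.98 with IGCGAMMA and 0.99 with BOLA-DRB3, and within HZ alone 0.54, -0.063 and 0.48. For ACP5-a they were ATP5MC1, a subunit of ATP synthase (r = 0.96), COPS9 of the COP9 signalosome (0.94), the co-chaperone DNAJC24 (0.92), B2M, the light chain of MHC class I (0.91), and LOC107132045 (0.91). CTSS was the fourth gene by likeness to CTSK, and neither CTSK nor CTSS was among the 5 most like ACP5-a.

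Of 8 other measured cysteine cathepsins, 0 passed in either direction, against 4.17% of all genes passing as higher and 3.56% as lower, and their median log2 difference was -0.18, beside -0.011 over all genes. At an unadjusted p under 0.05, 3 of the 8 differed. Such counts, here and for the lists below, take both directions together. The share of all genes under that unadjusted level was not computed for the zone difference, so nothing is read from these counts. The lysosomal protease CTSB gave -0.033 ± 0.16 (SE), CTSZ -0.036 ± 0.14 and CTSH 0.0049 ± 0.16 (each by its brightest probe set). CTSC, which activates granule proteases of leukocytes, gave -0.36 ± 0.18. The lowest and highest values, chosen after they were seen, were -1.12 ± 0.44 for CTSW, a cathepsin of cytotoxic lymphocytes, and 0.55 ± 0.16 for CTSV (adjusted p = 0.166 and 0.0796). The aspartic cathepsin CTSD and the serine carboxypeptidase CTSA gave -0.20 ± 0.17 and 0.31 ± 0.16 and did not pass.

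Of 5 measured genes of the cystatin superfamily, which holds the natural inhibitors of these proteases, FETUB rose in HZ, 0 fell and 4 did not pass, where 4.17% of all genes passed as higher. At an unadjusted p under 0.05, 3 of the 5 differed. FETUB, a plasma fetuin, averaged 94.1 ± 36.8 in HZ and 36.7 ± 28.3 in RZ (SD, n = 6). Its log2 difference was 1.16 ± 0.27 (SE), higher in 5 of 6 pairs (adjusted p = 0.0366). CST3, the gene nearest in pattern to CTSS, gave 0.46 ± 0.19 at its brightest probe set (adjusted p = 0.179) and -0.28 and -0.31 at the other 2. CST6 gave -0.86 ± 0.30 (adjusted p = 0.130), KNG1, the kininogen, 0.43 ± 0.21 and AHSG -0.21 ± 0.15. AHSG had 8 probe sets, and 2 of the others passed as higher. Of 3 other acid phosphatases 0 passed, with 0.081 ± 0.15 for ACP1, 0.47 ± 0.26 for the lysosomal ACP2 and -0.13 ± 0.19 for ACP6, and 0 had an unadjusted p under 0.05.

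Enzymes reach the lysosome through mannose 6-phosphate tags and their receptors. Of 11 measured genes of this route and of the lysosomal membrane, 0 passed (median -0.11), and 0 had an unadjusted p under 0.05. The membrane proteins LAMP1 and LAMP2 gave log2 differences of -0.065 ± 0.14 and -0.42 ± 0.20 (SE), the tagging enzyme GNPTAB 0.21 ± 0.18 and the receptor M6PR 0.11 ± 0.15.

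CTSK and CTSS are adjacent named genes on chromosome 3 in the RefSeq table of assembly ARS-UCD2.0, and ACP5 lies on chromosome 7 (NCBI gene numbers 513038, 327711 and 517002 for CTSK, CTSS and ACP5). Of the genes within 2 named places of them, 4 were measured. Beside the cathepsins, ARNT, a partner of hypoxia factors, gave 0.094 ± 0.20 and GOLPH3L, a Golgi protein, 0.30 ± 0.19 (SE). Beside ACP5, ELOF1 gave -0.060 ± 0.16 and CNN1, a smooth muscle calponin, 0.025 ± 0.26. None of the 4 passed or had an unadjusted p under 0.05.

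**Figure D4:**
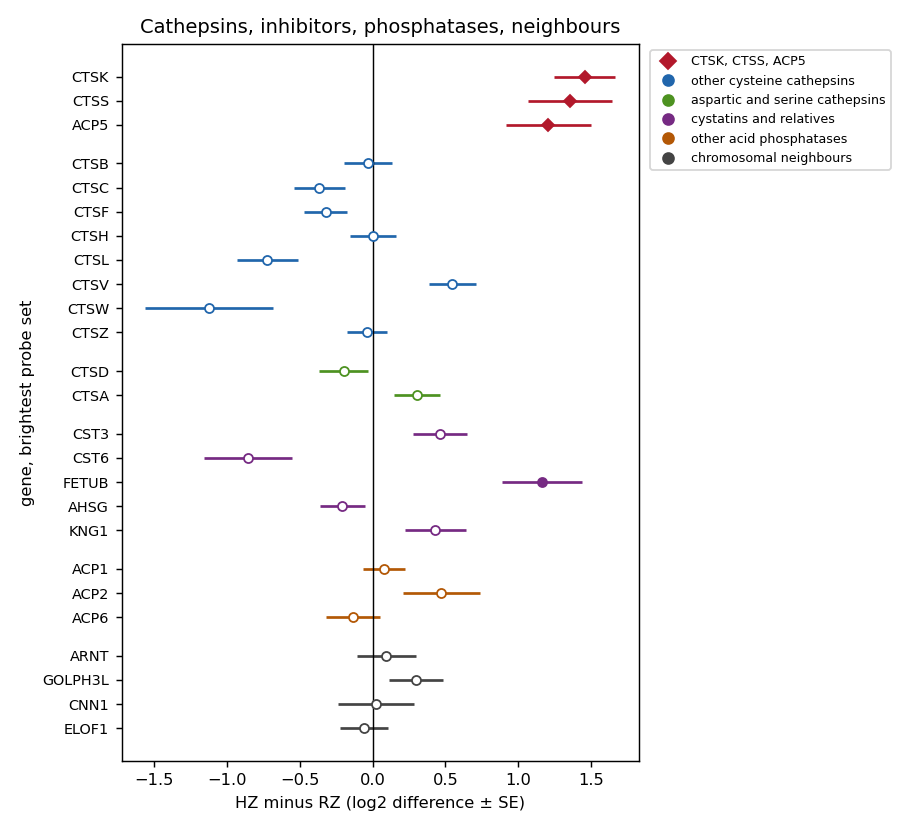
HZ minus RZ log2 difference with its SE (n = 6 pairs) for CTSK, CTSS and ACP5 (diamonds), other cathepsins, cystatin relatives, other acid phosphatases and neighbouring genes, each by its brightest probe set. Filled circles passed the test over all probe sets and open circles did not, and FETUB is the 1 filled circle.

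Markers of osteoclasts were measured for 4 of 10 listed genes, and the RANK receptor TNFRSF11A, CALCR, DCSTAMP, OCSTAMP, OSCAR and SIGLEC15 were not analysed here. Among the 4 measured, ITGB3 passed as higher and 0 as lower, beside 4.17% and 3.56% of all genes. An unadjusted p under 0.05 was found for 2 of the 4. ITGB3, the beta 3 integrin of the osteoclast's sealing zone that other cells also use, rose to a mean signal of 5652 ± 1623 in HZ, against 1999.96 ± 386 in RZ (SD, n = 6). The log2 difference of ITGB3 was 1.46 ± 0.19 (SE), positive in 6 of 6 pairs (adjusted p = 0.00450). Its 3 other, dimmer probe sets gave 0.69 to 0.95 and did not pass. NFATC1, the factor that drives osteoclast formation, gave 0.54 ± 0.17 (adjusted p = 0.101). MMP9, a gelatinase abundant in osteoclasts, had 89.6 ± 60.4 in HZ and 60.8 ± 95.5 in RZ, with 0.97 ± 0.45 (adjusted p = 0.248) and a higher level in 3 of 6 pairs. ATP6V0D2, a proton pump subunit of osteoclasts, had 68.9 ± 46.4 in HZ and 40.6 ± 15.7 in RZ, with 0.44 ± 0.22 (adjusted p = 0.271). The summed signal of the 4 ran from 5823 to 10916 in HZ and from 3344 to 5054 in RZ. ITGB3 and NFATC1 made up most of it. MMP9 was dim on the RZ arrays of pairs 3 to 6, at 2.66 to 10.0, and on HZ-6, at 5.09, and no detection limit was applied.

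Of 9 measured genes of acid secretion, CA2 rose, 0 fell and 8 did not pass (median 0.28), where 4.17% of all genes passed as higher. An unadjusted p under 0.05 was found for 3 of the 9. CA2 is the carbonic anhydrase that supplies protons in osteoclasts. It averaged 16586 ± 2355 in HZ and 9607 ± 984 in RZ (SD, n = 6). The log2 difference of CA2 was 0.78 ± 0.14 (SE), positive in 6 of 6 pairs (adjusted p = 0.0142). The proton pump subunits ATP6V1A, ATP6V1C1, ATP6V0D1 and ATP6V1B2 gave 0.036, 0.33, 0.46 and 0.35. TCIRG1, the pump subunit of the osteoclast's ruffled border, and the chloride channel CLCN7, both named after their values were seen, gave -0.44 ± 0.26 and -0.26 ± 0.16 and did not pass.

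Of 14 measured macrophage and monocyte genes, 5 rose in HZ, 1 fell and 8 did not pass (median 0.32), beside 4.17% of all genes higher and 3.56% lower. At an unadjusted p under 0.05, 8 of the 14 differed. AIF1, a calcium-binding protein of macrophages, averaged 229 ± 167 in HZ and 43.8 ± 45.6 in RZ (SD, n = 6). The log2 difference of AIF1 was 1.99 ± 0.18 (SE), positive in 6 of 6 pairs (adjusted p = 0.00112). The complement chains C1QA, C1QB and C1QC rose by 1.95, 1.64 and 1.80, and CSF1R, the receptor for the growth factor of macrophages and osteoclasts, by 1.03 ± 0.22, each in 6 of 6 pairs. PTPRC, the surface antigen of all leukocytes, fell by 1.72, with means of 17.5 ± 17.2 in HZ and 149 ± 183 in RZ. Its other, dimmer probe sets gave -0.24 and 0.19 and did not pass. The monocyte receptor CD14 gave -0.81 ± 0.26 and a second CD14 probe set fell by 1.02. CD68, LAPTM5 and CD53 gave 0.14, -0.027 and -0.77 and did not pass.

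The summed signal of the 14 ran from 1612 through a median of 2292 to 3923 in HZ and from 1253 through a median of 1941 to 4275 in RZ, and it was higher in HZ in 3 of 6 pairs. CD14, which was not among the genes that rose, weighed most in the sum, with a mean signal of 784 over the 12 arrays. The 5 genes that rose, each in 6 of 6 pairs, had mean signals of 83.5 to 225. The sums of RZ-1 and RZ-2, 3522 and 4275, were the highest in RZ, as were those arrays' CTSK, CTSS and ACP5-a signals. In pairs 1 and 2 the sum was lower in HZ by 0.50 and 0.12 log2 units, where CTSK was higher by 1.29 and 0.41. ITGAM was the dimmest of the list, at 4.04 ± 3.52 in HZ and 7.31 ± 9.56 in RZ, and no detection limit was applied. Sums of other lists were also highest in RZ on RZ-1 and RZ-2. For lymphocyte and granulocyte genes they were 11463 and 7223, against 865 to 1576 on the other RZ arrays. For MHC class II genes they were 1439 and 2191 (others 439 to 614), and for osteoblast and osteocyte genes 6497 and 17917 (others 1487 to 3952). Endothelial sums, 580 and 605, lay within the range of the others, 472 to 712. The part of these cells in the CTSK, CTSS and ACP5 values was not tested.

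MHC class II genes, whose assembly CTSS serves, did not pass. Of 8 measured, 0 rose and 0 fell (median 0.073, and -0.59 in pairs 1 and 2), and 0 had an unadjusted p under 0.05. BOLA-DRA gave 0.25 ± 0.32 (SE), BOLA-DRB3 -0.19 ± 0.22, BOLA-DQA2 0.011 ± 0.23 and BOLA-DOA -0.18 ± 0.26. Of other leukocyte genes, CD2, NKG7 and CATHL1 fell among 12 measured lymphocyte and granulocyte genes (median -0.75), and 5 of the 12 had an unadjusted p under 0.05. A second NKG7 probe set gave 0.78, higher in 6 of 6 pairs, and the other CD2 probe sets gave 0.13 and 0.21. None of these passed. Of 5 endothelial genes PECAM1 fell. Over all genes, 3.56% passed as lower and 4.17% as higher. Of 5 measured osteoblast and osteocyte genes, DMP1 rose and 4 did not pass, with COL1A1 at -1.05 ± 0.34, COL1A2 at -1.12 ± 0.29, BGLAP at -0.99 ± 0.46 and SOST at -0.56 ± 0.18. At an unadjusted p under 0.05, 4 of these 5 differed.

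**Figure D5:**
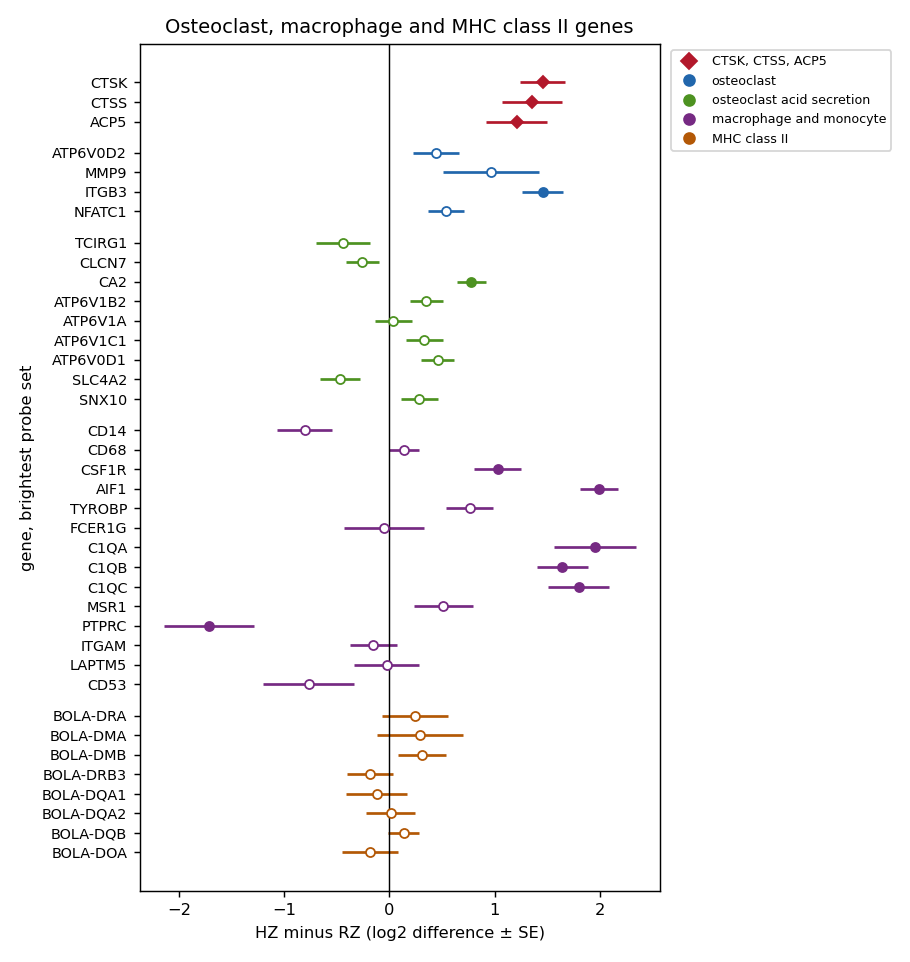
HZ minus RZ log2 difference with its SE (n = 6 pairs) for CTSK, CTSS and ACP5 (diamonds) and for genes of osteoclasts, of acid secretion, of macrophages and monocytes and of MHC class II, each by its brightest probe set. Filled circles passed the test over all probe sets, among them ITGB3, CA2, CSF1R, AIF1 and the 3 C1Q chains as higher and PTPRC as lower in HZ.

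Of the signals that call osteoclasts, the RANK ligand TNFSF11 and its decoy TNFRSF11B were not analysed here. CSF1 gave 0.015 ± 0.18 (SE), the RANK adaptor TRAF6 -0.11 ± 0.16 and IL34 0.21 ± 0.16, and CSF1R rose, as given above. Thus 1 of these 4 measured genes passed as higher, where 4.17% of all genes did. Among 15 measured transcription factors that act at osteoclast genes, 0 rose, NFKB1 and NFKB2 fell and 13 did not pass (median 0.033), where 3.56% of all genes passed as lower. An unadjusted p under 0.05 was found for 7 of the 15. NFKB2 fell by 1.15 ± 0.18 (adjusted p = 0.00931) and NFKB1 by 0.75 ± 0.16 (adjusted p = 0.0254), each in 6 of 6 pairs. The brightest others, FOS, JUNB, JUN and NFATC1, gave -0.064, -0.13, 0.55 and 0.54.

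Known substrates of the 3 enzymes were measured for 9 genes, of which 4 had an unadjusted p under 0.05. By their brightest probe sets 0 rose and ELN, elastin, a substrate of CTSK and CTSS, fell by 0.80 ± 0.19 (SE, adjusted p = 0.0388, lower in 6 of 6 pairs). ELN averaged 54.5 ± 23.4 in HZ and 104 ± 38.0 in RZ (SD, n = 6). The other ELN probe set gave -0.45 and did not pass, and over all genes 3.56% passed as lower. Collagen II (COL2A1), aggrecan (ACAN) and osteonectin (SPARC), which CTSK cuts, gave 0.15 ± 0.19, 0.13 ± 0.15 and 0.12 ± 0.16. The collagen I genes COL1A1 and COL1A2, also in this list, gave -1.05 and -1.12, as given above, and did not pass (adjusted p = 0.105 and 0.0515). Osteopontin (SPP1), a substrate of ACP5, gave 0.31 ± 0.14 (adjusted p = 0.215), higher in 6 of 6 pairs. The probe sets of bone sialoprotein (IBSP), also a substrate of ACP5, disagreed: the brightest gave 0.14 ± 0.17 (adjusted p = 0.715), and the other, with a mean signal of 8273, rose by 2.20 ± 0.21 (adjusted p = 0.00125) in 6 of 6 pairs.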

How the data were processed

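RNA of 12 cattle growth plate fractions was measured on 1-colour arrays with biotin-labelled cRNA, per the labels' protocols. Scanner software, probe summary and normalization: not given in the sources used here. The authors deposited linear ratios per probe set; for 21901 of 24128 probe sets the divisor was the median over arrays, for 2227 dim ones a fixed value. Signals were recovered because ratios lie on whole multiples of a step; all 24128 were solved, the largest distance from a whole step being 0.0575. That 1 step is 0.1 signal units is an assumption. Array medians were 96.7. The planned design named this signal.

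Of 24016 probe sets that are not controls, 13292 have 1 gene symbol (9155 genes), 86 several and 10638 none. Differences were fitted with limma 3.58.1 in R 4.3.3 on log2(signal + 16), with the pair as a block and Benjamini-Hochberg adjustment over all probe sets (threshold 0.05). SEs are the moderated ones of that fit. The plain SD of the 6 pair differences was 0.58 for CTSK, 0.88 for CTSS, 0.88 for ACP5-a, 0.65 for ACP5-b and 0.69 for ACP5-c. The pairing comes from the titles and the series text; same-numbered arrays deviated together (r = 0.124 to 0.447). Correlations used exact permutation tests (SciPy 1.17.1). A gene outside the 3 is read from its brightest probe set. Named genes are those of each list past the threshold, its up to 4 brightest others, chromosomal neighbours within 2 places and the 5 most similar genes. A few more, such as IBSP, ITGAM, TCIRG1, CLCN7, CTSW and CTSV, were named outside this rule. The genes and lists were chosen with earlier results of these data known. The fit was tested on simulated data, where it missed a part of the probe sets that had been changed. Alternatives were another constant, the ratio itself, quantile normalization, no block, a limit on dim probe sets and pairs left out.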

Additional observations from a re-analysis of the deposited data

Results flagged for a closer look

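ACP5-b, the second of the 3 ACP5 probe sets, had a signal of 48.2 on RZ-5, far below the other 5 RZ arrays, which stood between 129 and 211. The HZ minus RZ log2 difference of PTPRC was 0.92 in pair 5, while the other 5 pairs lay between -3.11 and -1.76. Of 100 groups of 6 values looked at in this way, 2 had such a value, where chance gives about 1 in 20.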

How the results depend on the processing

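The log2 differences of the 5 probe sets stayed positive under all 14 alternatives. They ran from 0.85 to 1.76 for CTSK, from 0.34 to 1.87 for CTSS and from 0.55 to 1.54, 0.56 to 0.90 and 0.25 to 0.73 for ACP5-a, ACP5-b and ACP5-c. The lowest CTSK and CTSS values, 0.85 and 0.34, came from pairs 1 and 2 alone. With a pair left out, CTSK passed in 6 of 6 fits, ACP5-a in 2 and CTSS in 1, that without pair 2. Over all probe sets, 782 were higher and 712 lower, against 505 and 326 with no replicate block, 368 and 215 with 1 added, and 315 and 163 on the deposited ratio. With 64 added 1120 were lower, and with a mean signal of at least 50 there were 1208. There were 258 and 78 in pairs 3 to 6, and 0 and 0 by limma in pairs 1 and 2. Without pairs 3 and 4, a setting chosen after seeing the data, there were 91 and 48. Leaving out 1 pair gave 334 to 650 higher and 223 to 895 lower. Over the 14 alternatives CTSK passed in 12, CTSS in 5 and ACP5-a in 4. The genes were chosen on this difference and the settings share arrays, so these calls and adjusted p values are a description only. Without the block ACP5-a did not pass (adjusted p = 0.0615), and the calls of the other members kept their side. With 1 added, the adjusted p was 0.0776 for CTSS and 0.101 for ACP5-a, on the deposited ratio 0.0862 and 0.112, and in pairs 3 to 6 alone 0.0785 for ACP5-a. CTSK did not pass in pairs 1 and 2 alone (0.401) or without pairs 3 and 4 (0.0742). List medians in pairs 1 and 2 were -0.59 for MHC class II, -0.011 for cystatins, 0.41 for aspartic and serine cathepsins and -0.70 for endothelium. Without the 2 arrays farthest from the median, r in HZ was 0.54 for CTSK and CTSS, 0.76 for CTSK and ACP5-a and -0.046 for CTSS and ACP5-a, and in RZ 0.85 for CTSK and CTSS and -0.18 for CTSS and ACP5-a. The Spearman rho of CTSK and CTSS in RZ was 0.94 (exact permutation, adjusted p = 0.1). The causes were not tested.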
